A study of Homo sapiens with 24 samples.

Results

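The 10 genes described here, used to mark whether a carcinoma cell is in an epithelial or a mesenchymal state, were followed in a breast cancer line and a derived clone after methionine was replaced by its precursor homocysteine. They are CDH1, EPCAM, CD44, VIM, FN1, CDH2, SNAI1, SNAI2, ZEB1 and TGM2. These 10 of the 26645 gene entries of the raw count table were picked by symbol as widely used state markers, with earlier results of these data known. TGM2 was chosen by its rise in the clone at 12 h, so its values in that comparison, and in the comparison of the 12 h responses of both lines, are given as a description with no test. Other comparisons of TGM2 that use the clone's 0 h libraries share values with that choice and are no independent support. All but SNAI2, 9 of the 10, passed the filter on low counts, as did 14741 entries in all.

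The parental line, MB468, is MDA-MB-468, a triple-negative breast cancer line that needs methionine to grow. MB468res-R8, called R8 in the plots, is 1 clone derived from it that grows on homocysteine, so a difference between the lines is a difference from that clone alone. Each line was sampled in growth medium with 100 µM methionine (Met+, 0 h) and at 0.5, 2 and 12 h after a switch to methionine-free medium with 370 µM DL-homocysteine (Met-Hcy+), with 3 libraries in each of 8 groups. All 24 libraries came from cells kept in the same base medium with dialyzed serum, vitamin B12, glutamine and cysteine. No library was kept in Met+ medium for 12 h, so time in culture and the change of medium cannot be told apart. Nothing in the labels says whether the libraries of a group came from separate cultures, and the p-values then measure only the spread between these libraries.

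Epithelial cells are held to their neighbors by E-cadherin (CDH1) and carry the adhesion molecule EPCAM. In an epithelial-mesenchymal transition, transcription factors such as SNAI1, SNAI2 and ZEB1 bind E-box sequences, repress CDH1 and other junction genes, and the cell gains vimentin filaments (VIM), N-cadherin (CDH2) and fibronectin matrix (FN1). Carcinoma cells can also hold markers of both states. CD44, the hyaluronan receptor, and tissue transglutaminase (TGM2), which crosslinks proteins, are often raised in such cells, and MDA-MB-468 is a basal-like line that is known to keep E-cadherin.

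Library totals ran from 11745553 to 36496655 counts with a median of 20503827. One library stood apart: replicate 2 of MB468 at 2 h gave 0.197% of its counts to 553 histone, small nuclear and small nucleolar genes, whose RNA mostly lacks a poly(A) tail, against 0.026 to 0.0337% in the other 23. The labelled cell type was checked on 6 breast epithelial genes (KRT8, KRT18, KRT19, KRT7, KRT5 and EGFR), whose summed level in the 0 h and 12 h libraries was 198043 to 266658 normalized counts. The sum hides changes of its genes: from 0 to 12 h in MB468, mean KRT19 went from 31531 to 12186, KRT8 from 38308 to 23381 and EGFR from 49489 to 92981. PGR was at 0 to 2 counts in those libraries, while ERBB2, also expected to be low in triple-negative cells, averaged 1911 in the parental line and 1921 in the clone at 0 h. ESR1 averaged 108 to 417 normalized counts over the 4 groups at 0 and 12 h. Of 5 fibroblast markers, COL1A1 averaged 764 in MB468 and 1488 in MB468res-R8 at 0 h, and 338 and 756 at 12 h, whereas COL1A2, COL3A1, DCN and LUM were at 0 to 3 counts in each 0 h and 12 h library. The leukocyte markers PTPRC and CD3E were at 0 to 4 counts there. Among the other markers, CD68 averaged 82.9 in MB468 at 0 h and 209 in MB468res-R8 at 12 h, its lowest and highest mean over these 4 groups, and the endothelial markers PECAM1, VWF and CDH5 summed to 55.8 to 134 in those libraries. In bulk RNA, fewer cells of a state and less RNA per cell cannot be told apart.

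Sequences at the transcription start sites (250 bases before to 50 after, RefSeq, GRCh38.p14) were given for 5 of the 10 genes, in 12 windows: CDH2, VIM, ZEB1, FN1 and CD44. CDH1, SNAI1, SNAI2, EPCAM and TGM2 had no entry. The windows below belong to VIM, which differed most between the lines at 12 h, to FN1, which fell in both lines, and to the 1 of 7 ZEB1 windows with the most E-boxes. Capitals mark the E-box CAGGTG, which is CACCTG on the other strand, and the cyclic AMP response element TGACGTCA, which reads the same on both strands and was added after the sequences were seen.
VIM, chr10:17227991-17228290, plus strand: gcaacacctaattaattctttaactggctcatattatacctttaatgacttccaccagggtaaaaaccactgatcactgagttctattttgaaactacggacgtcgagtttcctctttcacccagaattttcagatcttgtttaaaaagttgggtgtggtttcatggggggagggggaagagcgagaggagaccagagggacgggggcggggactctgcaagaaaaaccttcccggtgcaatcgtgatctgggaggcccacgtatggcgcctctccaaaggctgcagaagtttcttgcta
FN1, chr2:215436019-215436318, minus strand: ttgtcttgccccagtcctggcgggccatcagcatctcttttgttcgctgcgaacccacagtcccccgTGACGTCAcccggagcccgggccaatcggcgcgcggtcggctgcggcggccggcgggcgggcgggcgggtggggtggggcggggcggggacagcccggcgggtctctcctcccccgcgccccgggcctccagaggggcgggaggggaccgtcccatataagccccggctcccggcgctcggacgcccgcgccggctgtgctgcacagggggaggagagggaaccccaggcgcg
ZEB1, chr10:31318966-31319265, plus strand: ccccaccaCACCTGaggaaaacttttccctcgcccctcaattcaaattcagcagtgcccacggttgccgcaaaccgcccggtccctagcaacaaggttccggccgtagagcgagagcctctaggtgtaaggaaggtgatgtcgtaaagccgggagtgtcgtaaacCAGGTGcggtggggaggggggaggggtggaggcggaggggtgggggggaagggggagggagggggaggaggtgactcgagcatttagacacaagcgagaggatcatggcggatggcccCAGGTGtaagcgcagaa

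Counting the start site as 0, the ZEB1 window held E-boxes at -242, -85 and 33. One more ZEB1 window held 1 E-box, and the other 10 windows held none. Over all 35116 promoter windows of the same length, 20.6% held this E-box. The comparison letters CATATG were in none of the 12 windows and in 3.04% of all. The response element stood at -183 in FN1, in 1 of the 12 windows, against 1.85% of all windows. A match is a run of letters and not a measured binding site.

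At 0 h, EPCAM, CD44 and CDH1 lay above the mesenchymal genes per exon length in both lines. In MB468 the means were 2802 normalized counts per kb of exon for EPCAM, 1698 for CD44 and 1441 for CDH1. FN1 followed with 255, VIM with 146 and SNAI1 with 48.7. The lowest were CDH2 with 3.94, TGM2 with 1.93 and ZEB1 with 0.389 normalized counts per kb. In MB468res-R8 at 12 h, VIM reached 709 normalized counts per kb and passed FN1 at 154, while CDH1 fell to 976 and EPCAM stood at 3954. A normalized count is a count scaled to the mean effective library size of the 24 libraries. Exon length here merges all annotated exons of a gene, giving 5.176 kb for VIM, 6.076 kb for CDH1 and 17.216 kb for FN1. A single transcript can be shorter, so the order of genes close in level, such as CDH1 and VIM in MB468res-R8 at 12 h, depends on the length used.

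**Figure D1:**
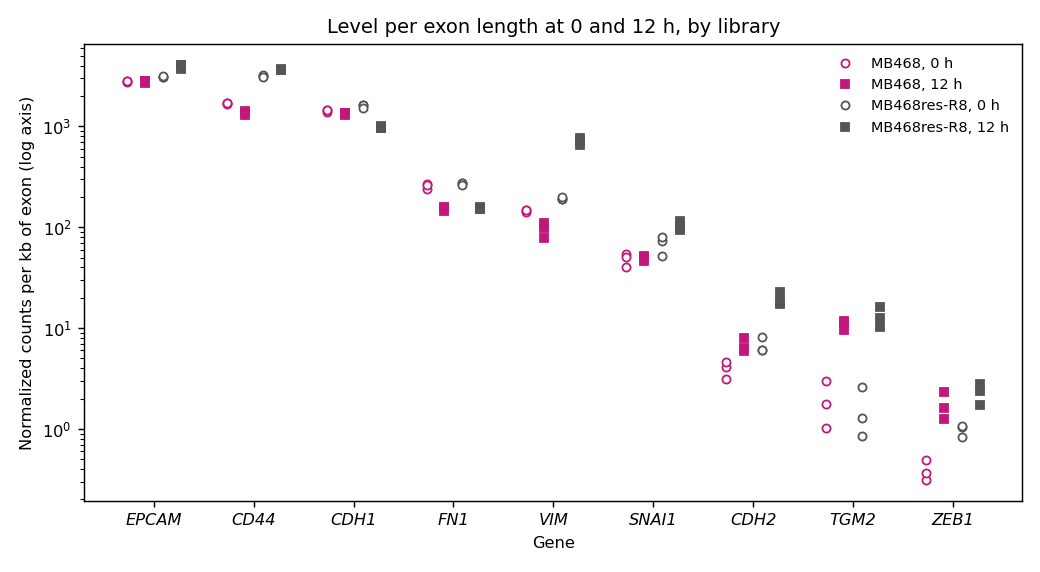
Normalized counts per kb of exon (log axis) of the 9 tested genes in each library at 0 h (open circles) and 12 h (filled squares), with MB468 in magenta and MB468res-R8 in gray. VIM in MB468res-R8 at 12 h, with a mean of 709, lies above FN1 at 154. CDH1 at 976 lies above VIM on these lengths, which merge all annotated exons of a gene, and that order depends on the length used.

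At 0 h, MB468res-R8 held more CD44, CDH2, VIM and SNAI1 transcript than MB468, and slightly more CDH1 and EPCAM, a direction that holds for the last 2 relative to all genes but changes sign with the spike-in scaling. The test (edgeR, Benjamini-Hochberg adjusted p under 0.05) was passed by 7 of the 9 genes, all 7 higher in MB468res-R8. The 9 include TGM2, which did not pass and whose choice used the MB468res-R8 libraries at 0 h. The background is high: 53.5% of all tested entries passed in this comparison, 26.4% higher and 27.1% lower. The scaling also matters here, since with the spike-in totals as library sizes the median of all genes moved by -0.31 on the log2 scale, and CDH1 at -0.15 and EPCAM at -0.17 then changed sign without passing the test. Relative to that median the differences were 0.16 for CDH1, 0.14 for EPCAM, 0.90 for CD44, 0.75 for CDH2 and 0.42 for VIM. CD44 was the only 1 of the 7 calls that passed with the spike-in scaling (log2 difference 0.59, adjusted p = 2.1e-05).

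After the switch, SNAI1, TGM2, CDH1 and CD44 passed at 0.5 h in both lines, and VIM and EPCAM passed in MB468 as well. These were 6 of 9 genes in MB468 and 4 of 9 in MB468res-R8, against 33.9% and 33.7% of all entries. The count in MB468res-R8 includes TGM2, whose choice used the same 0 h libraries. At 2 h, 1 of 9 passed in each line (SNAI1 in both), against 16.3% in MB468 and 4.37% in MB468res-R8. The 9 in MB468res-R8 again include TGM2, which did not pass. At 12 h, 7 of 9 passed in MB468, against 70.8% of all entries, with 36.1% of entries higher and 34.7% lower. In MB468res-R8 at 12 h, 8 of the 8 genes tested passed, against 61.3%, with 30.2% higher and 31.1% lower. Both 12 h counts include ZEB1, which passed the filter on low counts only through its 12 h libraries and so had to be higher there, and they are no support for a share above the background.

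The 12 h responses of the lines differed in 6 of 8 genes tested. The background there was 56.5% of all entries, with 26.2% higher and 30.3% lower in MB468res-R8. At 0.5 h the response of 1 of 9 genes (VIM) differed, against 2.9% of entries, and at 2 h that of 1 of 9 (SNAI1), against 5.07%. Both sets of 9 include TGM2, which did not pass and whose choice used the MB468res-R8 libraries at 0 h. Each line's own comparisons share its 0 h libraries, and the difference of responses uses all 4 groups.

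**Figure D2:**
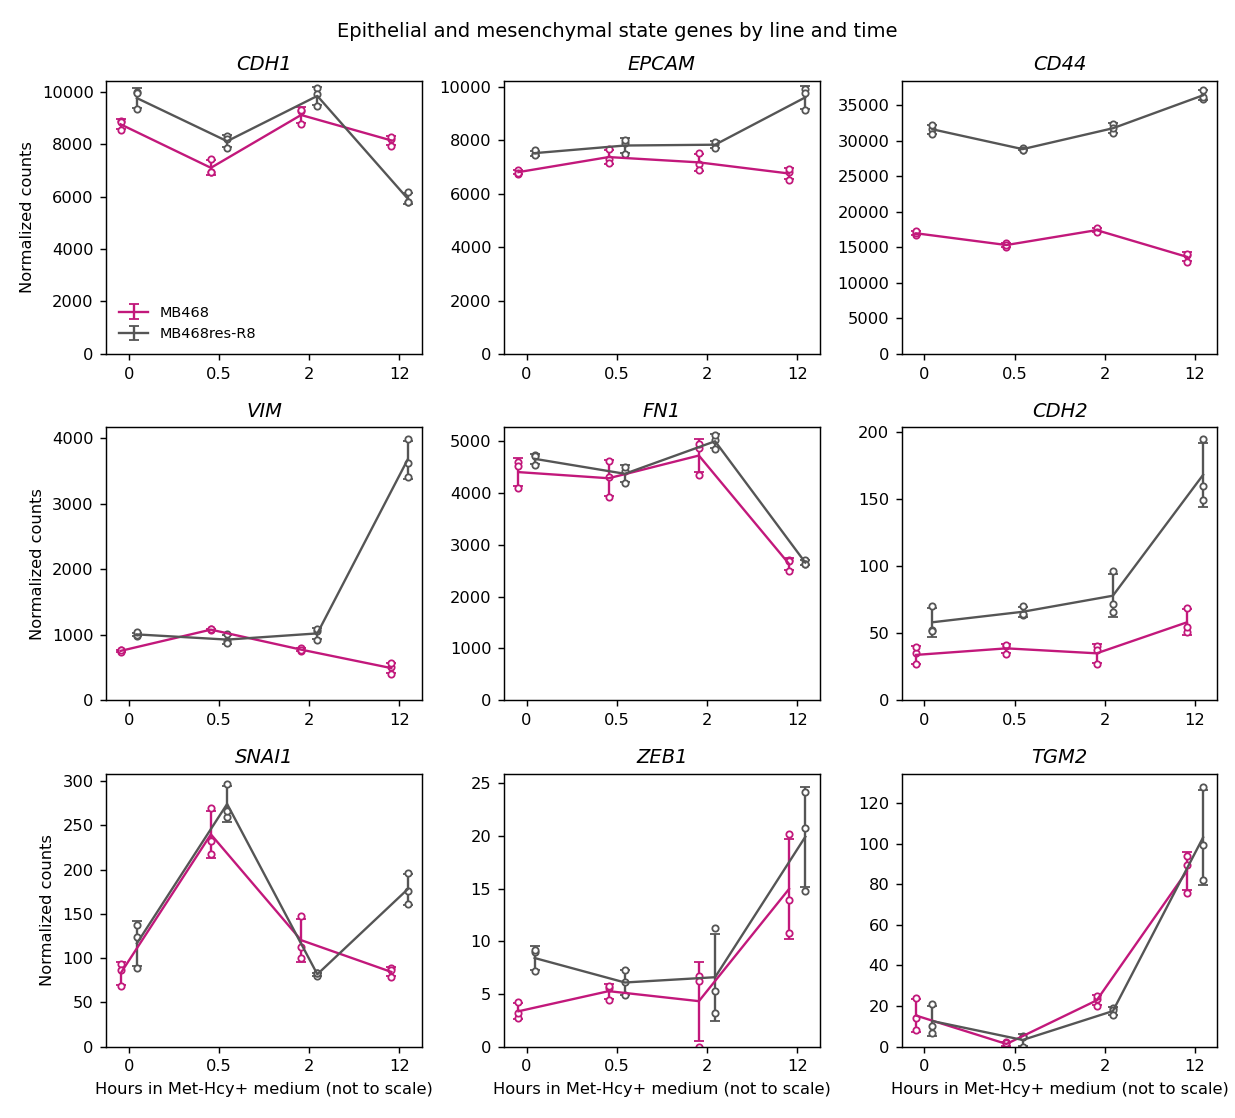
Normalized counts of the 9 tested genes (y axes, each from 0) against hours in Met-Hcy+ medium (x axes, not to scale) in MB468 (magenta) and MB468res-R8 (gray). Circles are libraries, lines join group means and bars are 1 SD (n = 3). VIM in MB468res-R8 rose from a mean of 1006 to 3669 at 12 h, while FN1 fell in both lines, to 2627 and 2653.

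CDH1 (chr16:68737292-68835537, GRCh38, plus strand), the adherens junction cadherin, fell at 12 h in MB468res-R8 and little in MB468. In MB468res-R8 it measured 9973, 9966 and 9333 normalized counts at 0 h and 5803, 6178 and 5810 at 12 h. In MB468 it measured 8540, 8873 and 8858 at 0 h and 7941, 8197 and 8289 at 12 h. The groups did not overlap between these times in either line, and MB468res-R8 at 12 h was the lowest of the 8 groups. The change was -0.72 ± 0.04 (SE) on the log2 scale in MB468res-R8 (edgeR, adjusted p = 1.03e-18) and -0.11 ± 0.04 in MB468 (adjusted p = 0.0177). The latter call was lost without replicate 2 of the 0 h group (adjusted p = 0.0534) or replicate 1 of the 12 h group (0.0607). With the spike-in scaling the MB468 change was -0.34 and passed (edgeR, adjusted p = 0.0156), beside a median of all genes at -0.23. The MB468res-R8 change was then -0.69. The response was lower in MB468res-R8 by a log2 difference of -0.61 ± 0.06 (adjusted p = 3e-12), which with the spike-in scaling was -0.35 (adjusted p = 0.108).

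CDH1 also dipped early in both lines. At 0.5 h it was at 6930, 6928 and 7437 normalized counts in MB468 and at 8299, 8189 and 7852 in MB468res-R8, below all 0 h libraries of the same line. The log2 changes were -0.30 (adjusted p = 5.73e-08) and -0.27 (adjusted p = 7.12e-07, edgeR), with a difference between the lines of 0.04 (95% interval -0.08 to 0.15). With the spike-in scaling the MB468res-R8 change was -0.22 (adjusted p = 0.313). At 2 h the level was 8758 to 9307 in MB468 and 9463 to 10140 in MB468res-R8. With the spike-in scaling, which moved the median of all genes in MB468 at 2 h by -0.42, the MB468 change at 2 h was -0.36 and passed as a fall (adjusted p = 0.0106). In order of level, MB468res-R8 at 2 h and 0 h came first and overlapped, followed by MB468 at 2 h and 0 h, which overlapped as well.

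EPCAM (chr2:47345158-47387601, plus strand), an epithelial adhesion molecule, did not follow CDH1. In MB468res-R8 it rose from 7481, 7448 and 7632 normalized counts at 0 h to 9117, 9938 and 9772 at 12 h, with no overlap. In MB468 it was at 6895, 6743 and 6789 at 0 h and at 6506, 6830 and 6935 at 12 h, where the groups overlapped. The log2 change was 0.35 ± 0.04 in MB468res-R8 (edgeR, adjusted p = 4.29e-10) and -0.01 ± 0.04 in MB468 (95% interval -0.09 to 0.07). The responses differed by 0.36 ± 0.06 (adjusted p = 5.02e-07). The remaining groups lay between 6904 and 8002, and a small rise at 0.5 h in MB468 (0.12, adjusted p = 0.022) was lost in 4 of the 6 fits that left out 1 library and was -0.10 with the spike-in scaling.

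CD44 (chr11:35138882-35232402, plus strand), the hyaluronan receptor, had the smallest p-value among the members for the difference between the lines at 0 h. At 0 h its level was 16672, 16988 and 17241 normalized counts in MB468 and 31594, 32246 and 30940 in MB468res-R8. All 12 MB468res-R8 libraries, from 28647 to 37170, lay above all 12 MB468 libraries, from 12934 to 17721. The 0 h difference was 1.86-fold (log2 0.90 ± 0.03, edgeR, adjusted p = 8.4e-24).

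The lines then moved apart. CD44 fell to 12934, 13977 and 14060 in MB468 at 12 h and rose to 37170, 35900 and 36068 in MB468res-R8. The log2 changes were -0.31 ± 0.04 (adjusted p = 2.13e-10) and 0.20 ± 0.03 (adjusted p = 2.85e-06, edgeR). With the spike-in scaling the rise in MB468res-R8 was 0.23 and did not pass (adjusted p = 0.144). The responses differed by 0.52 ± 0.05 (adjusted p = 8.14e-12). At 0.5 h both lines showed a small drop, of -0.15 in MB468 and -0.13 in MB468res-R8 on the log2 scale, and at 2 h the groups overlapped those at 0 h. The MB468 change at 2 h was -0.38 with the spike-in scaling (adjusted p = 0.00657), beside a median of all genes at -0.42. The 0.5 h drop in MB468res-R8 was -0.09 with the spike-in scaling (adjusted p = 0.781).

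VIM (chr10:17228241-17237593, plus strand), the intermediate filament of mesenchymal cells, gave the largest difference between the lines among the members at 12 h. In MB468res-R8 it went from 986, 994 and 1037 normalized counts at 0 h to 3982, 3402 and 3622 at 12 h. In MB468 it went from 764, 737 and 763 to 404, 508 and 564. Neither pair of groups overlapped, and MB468res-R8 at 12 h was the highest and MB468 at 12 h the lowest of the 8 groups.

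VIM thus rose 3.65-fold in MB468res-R8 (log2 1.87 ± 0.07, edgeR, adjusted p = 2.05e-19) and fell by 0.62 ± 0.08 on the log2 scale in MB468 (adjusted p = 1.11e-07). The difference of the responses was 2.49 ± 0.11 (95% interval 2.26 to 2.72, adjusted p = 6.31e-18). The log2 difference at 0 h was 0.41 ± 0.08 (adjusted p = 7e-05), which with the spike-in scaling was 0.10 (adjusted p = 0.531). VIM-AS1, an antisense entry of the table, held 6 to 36 counts per library, and the library kit does not mark strand.

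The early course of VIM ran the other way. At 0.5 h it was at 1070, 1084 and 1081 normalized counts in MB468, above each MB468 library at 0, 2 and 12 h. In MB468res-R8 it was at 901, 870 and 1008 at 0.5 h, overlapping the 0 h group. The MB468 rise was 1.43-fold (log2 0.52 ± 0.08, edgeR, adjusted p = 6.34e-06), and it was 0.30 with the spike-in scaling (adjusted p = 0.0941). The responses differed by -0.63 ± 0.11 (adjusted p = 0.000688), or -0.38 with the spike-in scaling (adjusted p = 0.355). At 2 h MB468 was at 749 to 797 normalized counts, and with the spike-in scaling its change from 0 h was -0.39 (adjusted p = 0.0112), beside a median of all genes at -0.42.

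Set against CDH1, VIM was high in MB468res-R8 at 12 h. Per kb of exon, MB468 held 9.75 to 10.5 VIM counts for each 100 CDH1 counts at 0 h, 17.1 to 18.4 at 0.5 h and 5.97 to 7.99 at 12 h. MB468res-R8 held 11.6 to 13 at 0 h and 64.6 to 80.6 at 12 h. This is a description of both genes together, with no test of its own. The size of the ratio depends on the merged exon lengths used, 5.176 kb for VIM and 6.076 kb for CDH1. Those lengths are a fixed factor in the comparison of groups.

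**Figure D3:**
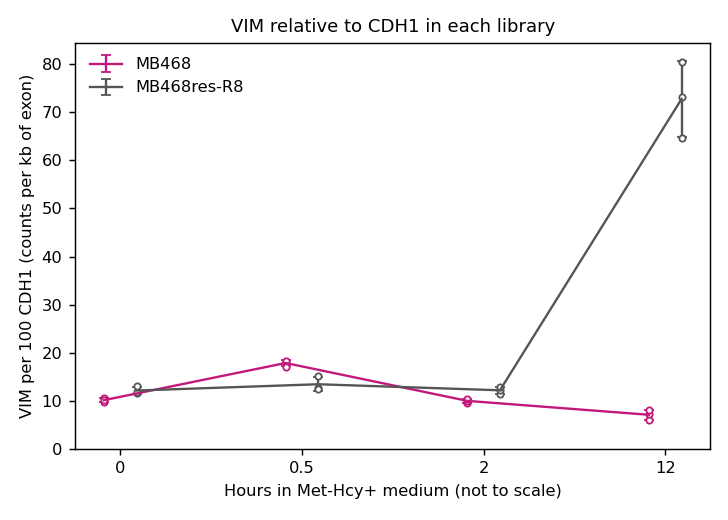
VIM counts per 100 CDH1 counts, both per kb of exon (y axis, from 0), against hours in Met-Hcy+ medium (x axis, not to scale). Circles are libraries, lines join group means and bars are 1 SD (n = 3). The MB468res-R8 libraries at 12 h sit between 64.6 and 80.6, above the other libraries.

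CDH2 (chr18:27932879-28177946, minus strand), the cadherin of mesenchymal and neural cells, rose at 12 h in both lines from a low level. In MB468res-R8 it went from 52.3, 51.5 and 70.6 normalized counts to 149, 195 and 160. In MB468 it went from 35.0, 39.8 and 26.7 to 69.0, 50.7 and 54.5. Neither pair of groups overlapped. The log2 rise was 1.54 ± 0.18 in MB468res-R8 (edgeR, adjusted p = 1.06e-09) and 0.76 ± 0.20 in MB468 (adjusted p = 0.0009). The MB468 rise was 0.52 with the spike-in scaling (adjusted p = 0.0614).

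The rise of CDH2 was larger in MB468res-R8 by 0.78 ± 0.27 on the log2 scale (adjusted p = 0.0131), and that call was lost without replicate 2 of MB468 at 0 h (0.64, adjusted p = 0.0686). At 0 h CDH2 was 1.66-fold higher in MB468res-R8 (log2 0.73 ± 0.21, edgeR, adjusted p = 0.00284), with no overlap of the groups. All 12 MB468res-R8 libraries were at 51.5 or above, and of the MB468 libraries only 2 of those at 12 h reached that level. At 0.5 and 2 h its level was 27.2 to 41.4 in MB468 and 63.7 to 96.0 in MB468res-R8, with no change that passed.

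FN1 (chr2:215360440-215436073, minus strand), the matrix glycoprotein fibronectin, fell at 12 h by about the same amount in both lines. In MB468 it went from 4087, 4586 and 4515 normalized counts to 2483, 2705 and 2691. In MB468res-R8 it went from 4716, 4705 and 4535 to 2710, 2623 and 2626. All 6 libraries at 12 h were below the other 18, whose lowest value was 3921. The log2 changes were -0.74 ± 0.05 (adjusted p = 8.06e-16) and -0.81 ± 0.05 (adjusted p = 2.34e-16, edgeR). Their difference was -0.07 (95% interval -0.21 to 0.08, adjusted p = 0.456). At 0 h the lines differed by 0.08 (95% interval -0.02 to 0.19), which did not pass. Fibronectin, a mesenchymal product, and E-cadherin thus fell together in MB468res-R8 while vimentin rose.

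SNAI1 (chr20:49982980-49988886, plus strand), the zinc finger repressor Snail, had the largest rise among the members at 0.5 h. In MB468 it measured 93.3, 68.5 and 87.1 normalized counts at 0 h and 232, 218 and 269 at 0.5 h. In MB468res-R8 it measured 124, 138 and 88.9 at 0 h and 297, 259 and 267 at 0.5 h. Neither pair of groups overlapped. The rise was 2.88-fold in MB468 (log2 1.53 ± 0.15, edgeR, adjusted p = 2.82e-11) and 2.33-fold in MB468res-R8 (log2 1.22 ± 0.14, adjusted p = 1.67e-09). The difference between the lines, -0.31 (95% interval -0.71 to 0.10), did not pass (adjusted p = 0.566).

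At 2 h SNAI1 was at 101, 148 and 113 in MB468 and at 80.0, 82.8 and 82.7 in MB468res-R8. Its log2 change from 0 h was 0.52 in MB468 (edgeR, adjusted p = 0.0184) and -0.52 in MB468res-R8 (adjusted p = 0.0382), and the responses differed by -1.05 ± 0.22 (adjusted p = 0.00159). Both single-line calls are fragile: the MB468 call was lost without replicate 2 of the 2 h group, the library with the high share of RNA that lacks a poly(A) tail (0.38, adjusted p = 0.163), or without replicate 2 of the 0 h group (0.39, adjusted p = 0.164). The MB468res-R8 call was lost in 5 of the 6 fits without 1 library and with a replicate block (adjusted p = 0.052). None of these calls passed with the spike-in scaling: the change was 0.10 in MB468 (adjusted p = 0.665) and -0.56 in MB468res-R8 (adjusted p = 0.231), and the difference of responses was -0.66 (adjusted p = 0.089).

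At 12 h SNAI1 was again higher in MB468res-R8, at 196, 162 and 176 normalized counts. MB468 was at 88.6, 78.7 and 86.2, overlapping its 0 h group. The log2 change was 0.60 ± 0.14 in MB468res-R8 (edgeR, adjusted p = 0.000362) and 0.04 in MB468 (95% interval -0.27 to 0.36). The responses differed by 0.55 ± 0.21 (adjusted p = 0.0229), a call that was lost without replicate 1 of MB468 at 0 h (0.44, adjusted p = 0.0966) or replicate 3 of MB468res-R8 at 0 h (0.41, adjusted p = 0.0917). At 0 h the lines differed by 0.51 ± 0.15 (adjusted p = 0.00452), although the groups overlapped and the call was lost without replicate 2 of MB468 (0.38, adjusted p = 0.0609).

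SNAI2, the related repressor Slug, was close to undetected. All 12 MB468res-R8 libraries held 0 counts. MB468 held 0, 0 and 0 counts at 0 h, 0, 0 and 1 at 0.5 h, 2, 1 and 2 at 2 h, and 6, 1 and 3 at 12 h, or 16 in all. In the 17 libraries at 0, the limit that a count of 0 allows (3 counts) lay between 1.94 and 4.22 normalized counts, which covers counting error only. It did not pass the filter on low counts. In a fit without that filter its change at 12 h in MB468 passed (edgeR, adjusted p = 0.0312), on the 10 counts of those 3 libraries, and no other comparison of it did; no fold is given against a group at 0.

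ZEB1 (chr10:31318495-31529814, plus strand), the homeodomain zinc finger repressor, was the lowest of the tested members at 0 h and had its highest levels at 12 h in both lines. It passed the filter on low counts only through its 12 h libraries, so its 12 h values had to be the higher ones and the tests below are no independent support for a rise. In MB468 it went from 2.69, 3.19 and 4.22 normalized counts to 20.2, 10.8 and 13.9. In MB468res-R8 it went from 7.14, 8.95 and 9.15 to 24.1, 14.8 and 20.8. Neither pair of groups overlapped, although the sums behind them were only 10 and 65 counts in MB468 and 24 and 62 in MB468res-R8. The ratio of the summed counts, scaled for depth, was 4.83 (95% interval for counting error, 2.47 to 10.6) in MB468 and 2.47 (1.52 to 4.14) in MB468res-R8.

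The fitted log2 change of ZEB1 was 2.19 ± 0.50 in MB468 and 1.27 ± 0.42 in MB468res-R8. In the fit without the filter the adjusted p was 0.000281 and 0.0238 (edgeR). In the fit with the filter the difference of these changes, -0.93 (95% interval -2.29 to 0.44), did not pass. The 0 h difference of 1.31 ± 0.57 passed narrowly (adjusted p = 0.0489), was lost in each of the 6 fits without 1 library and did not pass without the filter (adjusted p = 0.0889). ZEB1-AS1, whose start lies beside that of ZEB1, held 22 to 107 counts per library, and without strand in the kit reads from antisense partners cannot be told apart.

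TGM2 (chr20:38127385-38166578, minus strand), the crosslinking enzyme tissue transglutaminase, was chosen by its 12 h values in MB468res-R8. There it went from 10.3, 6.71 and 20.9 normalized counts at 0 h to 128, 82.0 and 99.1 at 12 h, a log2 change of 3.07 given as a description. MB468, whose values the choice did not use, went from 8.08, 23.9 and 14.1 to 75.7, 89.5 and 93.8. The groups did not overlap, and the rise was 5.46-fold (log2 2.45 ± 0.32, edgeR, adjusted p = 1.92e-08). The lines overlapped at 12 h and at 0 h. The 0 h difference was -0.36, a description, since the choice of TGM2 used the MB468res-R8 libraries at 0 h.

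TGM2 was lower at 0.5 h than at 0 h. At 0.5 h the libraries held 0, 2 and 1 counts in MB468 and 6, 4 and 0 in MB468res-R8, against sums of 49 and 35 counts at 0 h. The ratio of summed counts to 0 h, scaled for depth, was 0.0684 (95% interval for counting error, 0.0136 to 0.212) in MB468 and 0.299 (0.132 to 0.618) in MB468res-R8. The drop in MB468 passed (edgeR, adjusted p = 2.86e-05). In MB468res-R8 it is a description, since the choice of TGM2 used those 0 h libraries. Fitted on the 0 and 0.5 h libraries of a line alone, TGM2 did not pass the filter on low counts and had no test. At 2 h TGM2 was at 20.1 to 25.0 in MB468 and 15.4 to 19.2 in MB468res-R8.

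**Figure D4:**
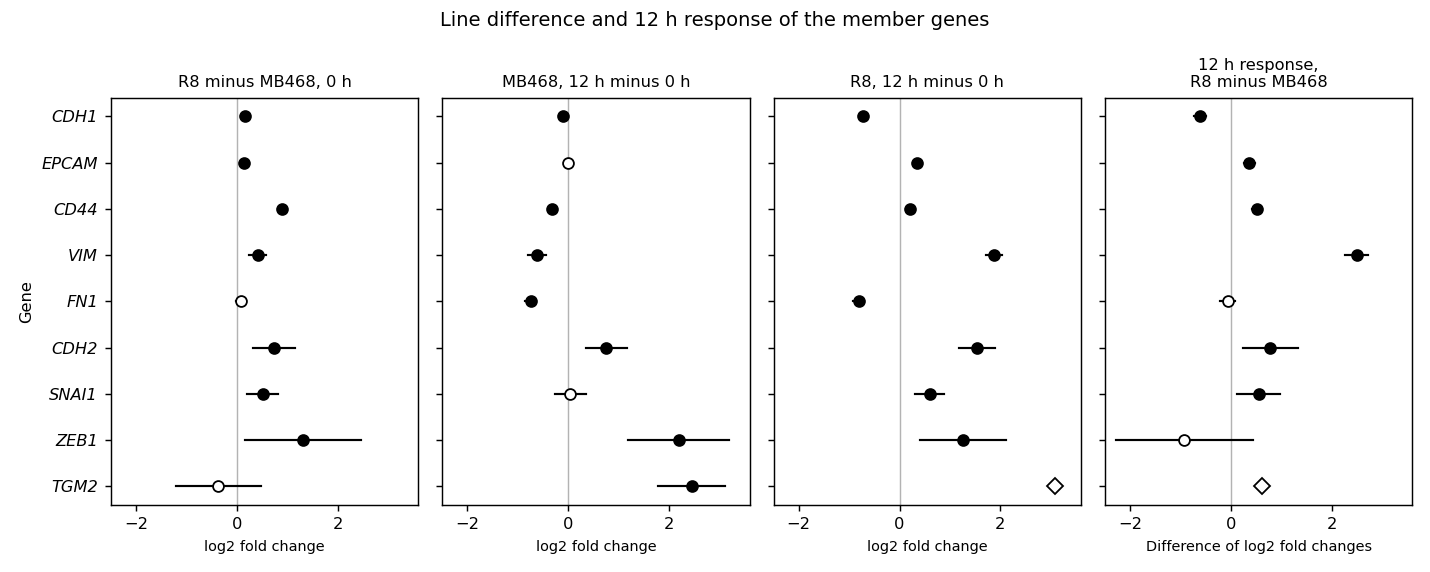
Log2 fold changes of the 9 tested genes (rows) for the 0 h line difference, the 12 h change in each line and the difference of these changes (panels, x axes). Bars are 95% intervals, filled circles passed at an adjusted p under 0.05, open circles did not, and diamonds are TGM2 values with no test. The TGM2 bar in the 0 h panel is a description, since the choice of TGM2 used the MB468res-R8 libraries at 0 h. VIM, at 2.49, has the largest difference between the lines.

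Across the 24 libraries, VIM followed EPCAM most closely among the members (Pearson r of log2 library-scaled counts 0.92), and CDH1 ran against VIM (-0.66) and with FN1 (0.70). The libraries share their groups, so these are descriptions. The entries most like each member, out of all above a minimum mean level, were GRPEL1 (r = 0.95) for TGM2, KIAA0368 (0.96) for VIM, CLIP1 (0.95) for CDH1, MCU (0.96) for EPCAM and EXOSC10 (0.995) for CD44. For FN1 it was ADCK4 (0.98), for CDH2 SLC16A1 (0.95), for SNAI1 KLF3 (0.92) and for ZEB1 TMEM5 (0.84).

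The 7 lists of related genes set the members among their neighbors. Their counts stand beside a high background of all tested entries. At 0 h 26.4% of entries were higher and 27.1% lower in MB468res-R8. At 12 h 36.1% rose and 34.7% fell in MB468, and 30.2% rose and 31.1% fell in MB468res-R8. The 12 h responses differed upward in 26.2% and downward in 30.3%. No list was tested against these shares. Of 21 junction and polarity genes, 11 were higher and 2 lower in MB468res-R8 at 0 h, with a median log2 difference of 0.28 against 0.00 over all tested entries. The tight junction protein CLDN1 was higher by 1.35 ± 0.05 and the desmosome gene PERP by 1.02 ± 0.05, and CTNNB1 (beta-catenin) was lower, at -0.68 ± 0.04. With the spike-in scaling 2 were higher and 7 lower. At 12 h, 5 rose and 12 fell in MB468 and 4 rose and 12 fell in MB468res-R8, with medians of -0.20 in each. In MB468 TJP3 changed by -1.47 and JUP (plakoglobin) by -1.40, and MARVELD3 by 1.38. In MB468res-R8 CLDN1 changed by -1.49, CLDN4 by -1.48 and PKP3 (plakophilin) by 0.58. The responses differed upward in 6 and downward in 8, with CTNNB1 at 0.99, CLDN1 at -1.30 and CTNNA1 (alpha-catenin) at -1.02.

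Among 18 genes for epithelial transcription factors, splicing factors and surface proteins, 10 were higher and 3 lower in MB468res-R8 at 0 h, led by CD24 (1.37) and the mucin MUC1 (0.85), with the protease PRSS8 at -0.66. With the spike-in scaling 2 were higher and 5 lower. At 12 h, 5 rose and 11 fell in MB468 (median -0.30), and 3 rose and 13 fell in MB468res-R8 (median -0.51); with the spike-in scaling these were 3 and 11, and 1 and 10. MUC1 (-1.81) and CD24 (-1.63) fell in MB468, where PRSS8 (1.28) and the repressor OVOL2 (1.13) rose. In MB468res-R8 the grainyhead factor GRHL3 fell from 638 to 682 normalized counts at 0 h to 106 to 148 at 12 h (-2.39 ± 0.11), and ELF3 changed by 0.32. The responses differed upward in 6, such as MUC1 (1.0), and downward in 9, such as PRSS8 (-2.30); with the spike-in scaling these were 6 and 4.

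Of 12 further transcription factors of mesenchymal cells, 9 could be tested. At 0 h 2 were higher in MB468res-R8, among them FOSL1 (0.94), and 3 lower, among them SOX9 (-0.80), with a median of -0.39. With the spike-in scaling 1 was higher and 4 lower. TCF4, an E-box factor, held 12 to 24 counts in MB468 at 0 h and 0 in all MB468res-R8 libraries at 0 and 12 h. It could not pass the filter on low counts through those MB468res-R8 libraries, so its 0 h call is no independent support for a difference. At 12 h 4 rose and 3 fell in MB468 (median 0.63), with FOXC1 at 0.98, TWIST1 at 0.96 and FOSL1 at -0.99. In MB468res-R8 3 rose and 2 fell (median -0.05), with the chromatin protein HMGA2 at 1.67, TWIST1 at 0.84 and FOXC1 at -1.14. The responses differed in 2: HMGA2 (0.74 ± 0.26) and FOXC1 (-2.12 ± 0.09). With the spike-in scaling they differed upward in 2 and downward in 1. The HMGA2 call was lost without replicate 3 of MB468 at 12 h (0.61, adjusted p = 0.0508).

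Of 26 genes for mesenchymal cytoskeleton, matrix and surface proteins, 20 could be tested. At 0 h 7 were higher and 9 lower in MB468res-R8 (median -0.17). S100A4 (1.08) and LOXL2 (1.02) were higher, while the actin-binding gene TAGLN was at 2804 to 2926 normalized counts in MB468 and 115 to 143 in MB468res-R8 (-4.53 ± 0.08) and LOX, a collagen-crosslinking oxidase, was at -2.38. With the spike-in scaling 3 were higher and 12 lower. At 12 h 4 rose and 11 fell in MB468 (median -0.29), with the receptor kinase AXL at 1.68, TNC at 1.25 and MMP14 at -1.46. In MB468res-R8 8 rose and 7 fell (median -0.02).

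In the difference of the 12 h responses, 9 of the 20 tested genes of this list were higher in MB468res-R8 and 1 was lower. Over all entries, 26.2% were higher and 30.3% lower. The median of the list was 0.18 against -0.05 over all entries. The matrix protein tenascin C (TNC) went from 907 to 1140 normalized counts at 0 h to 5271 to 5690 at 12 h in MB468res-R8 (2.41 ± 0.11), a response larger than in MB468 by 1.16 ± 0.16. Moesin (MSN), which ties CD44 to actin, fell in MB468 (-1.27 ± 0.04) and differed between the lines by 1.52 ± 0.06. CAV1 rose by 0.95 in MB468res-R8.

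Only 3 of 8 other transglutaminase genes could be tested, and their directions were mixed. At 0 h 1 was lower in MB468res-R8 (TGM1, -0.35) and none was higher (median 0.02). In MB468 at 12 h, TGM4 went from 2.69 to 8.76 normalized counts at 0 h to 137 to 154 at 12 h (4.62 ± 0.41), TGM1, the keratinocyte enzyme, changed by 0.62, and TGM5 by -3.25 (median 0.62). The 0 h values of TGM4 in MB468 lay below the filter on low counts, which its 12 h libraries there passed. Its calls are thus no independent support for a rise. In MB468res-R8 TGM1 alone passed, falling from 496 to 516 normalized counts to 163 to 210 (-1.44 ± 0.08; list median -0.25); with the spike-in scaling 1 of the 3 also rose. All 3 responses differed: TGM4 by -3.61, with the same limit, TGM1 by -2.06 and TGM5 by 3.0 (median -2.06).

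Of 12 TGF-beta ligands, receptors and binding proteins, 6 were higher and 1 lower in MB468res-R8 at 0 h (median 0.19), or 5 and 3 with the spike-in scaling. The coreceptor TGFBR3 was at 1.62, LTBP2 at 1.42 and the type I receptor TGFBR1 at -0.44, a call that was lost without replicate 2 of MB468 (adjusted p = 0.0815). At 12 h 4 rose and 7 fell in MB468 (median -0.35) and 3 rose and 8 fell in MB468res-R8 (median -0.45). Under the spike-in scaling 2 rose and 7 fell in MB468, and 1 rose and 6 fell in MB468res-R8. TGFBR3 rose by 1.09 in MB468 and ENG (endoglin) by 0.31 in MB468res-R8, and LTBP4 fell in both, by 1.35 and 1.12 on the log2 scale. The responses differed upward in 2, such as ENG (0.72), and downward in 4, such as INHBA (-1.47), with a median of -0.11.

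Of 11 CD44 partners and hyaluronan enzymes, 9 could be tested, MSN among them. At 0 h 5 were higher and 2 lower in MB468res-R8 (median 0.27), with the sheddase ADAM10 at 0.71 and CEMIP, which degrades hyaluronan, at -1.89, while with the spike-in scaling 1 was higher and 3 lower. At 12 h 2 rose and 5 fell in MB468 (median -0.71), with HYAL2 at 0.30 and CEMIP at -1.73, and HYAL2 was at 0.07 with the spike-in scaling (adjusted p = 0.698). In MB468res-R8 3 rose and 4 fell (median -0.29), with the hyaluronan synthase HAS3 at 0.54 and ezrin (EZR) at -1.02. With the spike-in scaling 0 rose and 5 fell in MB468, and 2 rose and 2 fell in MB468res-R8. The responses differed upward in 4, such as HAS3 (1.26), and downward in 3 (median 0.54), and with the spike-in scaling in 4 and 0.

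**Figure D5:**
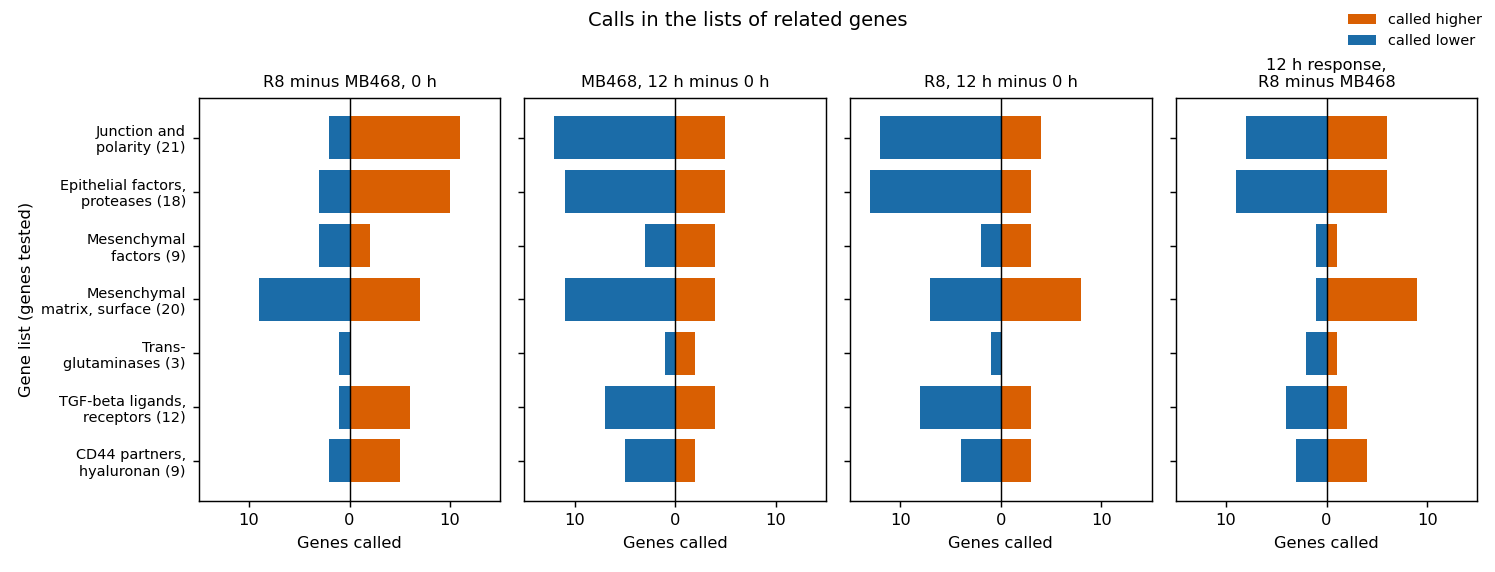
Number of genes called higher (orange, to the right of 0) and lower (blue, to the left) in each list of related genes, with the number tested in brackets, for the same 4 comparisons. In the last panel, 9 of the 20 mesenchymal matrix and surface genes are called higher and 1 lower, against 26.2% and 30.3% of all entries.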

How the data were processed

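Poly(A) RNA libraries, 24 in all and labelled by line, medium and time, were sequenced as single-end reads of 100 bases. Per the submitters' processing notes, reads were aligned with HISAT2 2.1.0 to GRCh38 joined with spike-in sequences, and the authors deposited raw counts per gene made with featureCounts in Subread 1.5.3. The authors' size-factor-normalized table and their table of fold changes and p-values (DESeq and DESeq2) were not used.

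Entries were kept by edgeR 4.0.16 (at least 10 counts in enough libraries and 15 in total; 92 spike-ins left out), scaled by TMM and fitted with 1 mean per group by the quasi-likelihood test with 16 residual degrees of freedom. The p-values were adjusted over all 14741 entries and read at 0.05. Normalized counts are counts over the effective library size, times its mean. Exon lengths, merged over all annotated exons of a gene, and coordinates are from GENCODE on GRCh38, sequences from RefSeq (GRCh38.p14). The counts rest on the authors' gene models, whose exons may differ from these. Alternatives used DESeq2 1.42.0, spike-in totals, other filters, a replicate block and fits without each library. R was 4.3.3. The fit was tested on simulated data.

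The members and lists were chosen with earlier results of these data known. The 10 members were all named, and list genes were taken from the 3 of largest change in each direction among those called, with levels given for some of them and TCF4 named for its counts. The TGACGTCA letters were added after the sequences were seen. Some list genes that were counted are not reported here by name.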

Additional observations from a re-analysis of the deposited data

Results flagged for a closer look

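The responses of the members below, 8 in all, differed between the lines by a test of the difference itself (edgeR, n = 3 libraries a group, values as MB468res-R8 minus MB468 on the log2 scale). At 0.5 h this was VIM (-0.63). At 2 h it was SNAI1 (-1.05). At 12 h these were VIM (2.49), CDH2 (0.78), CDH1 (-0.61), SNAI1 (0.55), CD44 (0.52) and EPCAM (0.36). For VIM and CD44 at 12 h, all 3 libraries of each line lay on opposite sides of that line's 0 h libraries. The spike-in totals moved the median of all genes by 0.26 at 0.5 h, 0.38 at 2 h and 0.20 at 12 h in these differences, and relative to that median VIM at 12 h stood at 2.54 and CDH1 at -0.56. With that scaling VIM at 0.5 h (edgeR, adjusted p = 0.355), SNAI1 at 2 h (0.089) and CDH1 at 12 h (0.108) did not pass. The calls of CDH2 and SNAI1 at 12 h were lost in some fits without 1 library.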

How the results depend on the processing

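Of 88 member values, DESeq2 size factors changed no call, the DESeq2 Wald test and no filter on low counts lost 1 each (ZEB1 at 0 h, adjusted p = 0.0764 and 0.0889), the latter also giving SNAI2 in MB468 at 12 h (0.0312; 8 members called for 7), fitting the compared groups alone lost 1 of 79 (SNAI1 in MB468res-R8 at 2 h, adjusted p = 0.0726) and, as ZEB1 or TGM2 then failed the filter, called 6 members for 7 at 0 h, 5 for 6 in MB468 and 3 for 4 in MB468res-R8 at 0.5 h, and a minimum of 10 counts in every library kept all 70 it could test. Leaving out 1 library kept 658 of 684 calls or misses, lost 25 calls and gained 1. The spike-in totals kept 66, lost 14 and reversed 8: CDH1 (-0.15) and EPCAM (-0.17) at 0 h, EPCAM in MB468 at 0.5 h (-0.10), and CD44 (-0.38), CDH1 (-0.36), VIM (-0.39), EPCAM (-0.35) and FN1 (-0.31) in MB468 at 2 h, of which the first 3 had passed before and no longer did, and the 5 at 2 h had not and now passed (adjusted p = 0.00657 to 0.0269). They moved the median of all genes by -0.20, -0.42 and -0.23 in MB468 at 0.5, 2 and 12 h and by at most 0.04 in MB468res-R8. The number of members called then went from 7 to 1 at 0 h, from 1 to 5 in MB468 at 2 h, from 4 to 2 and from 1 to 0 in MB468res-R8 at 0.5 and 2 h, and from 1 to 0 for the line difference at 0.5 h and at 2 h, and the cause was not tested. Without 1 library the number was 0 to 2 in MB468 and 0 to 1 in MB468res-R8 at 2 h.

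Replicate numbers were not used to pair the libraries in the main fit, and the labels do not say whether they mark a shared day. In no comparison did each same-numbered pair correlate above 0.1 (MB468res-R8 at 2 h, -0.03 to 0.47). With only 3 pairs in a comparison of 2 groups, this cannot show that pairing is absent. A replicate block kept 86 of the 88 values, lost ZEB1 at 0 h (adjusted p = 0.0548) and SNAI1 in MB468res-R8 at 2 h (0.052), and left 0 members called there, as did the compared groups alone. Of the 71 values given for list genes, the block and both DESeq2 alternatives changed no call, the spike-in totals lost 1, and leaving out 1 library lost 2 of 522. Of the 56 list counts, 18 moved by over 1.5 times with the spike-in totals. Depth limits SNAI2, ZEB1 and TGM2.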
